A study of Homo sapiens with 9 samples.

Results

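The early response of Jurkat cells to stimulation was described from 6 of the 9 ribosome profiling libraries in the study, 3 of resting cells and 3 of cells activated for 5 h. The libraries of each group were taken by their labels. Jurkat clone E6-1 is a human T lymphoblast line, and all 6 libraries come from this single clone. Resting cells were not activated and are labelled 0 h. No group was held for 5 h without the antibodies. Effects of time and handling therefore cannot be told apart from those of the antibodies. Activated cells were placed on plates bearing anti-CD3 antibody (10 µg/mL during coating), with anti-CD28 antibody at 5 µg/mL in the medium. The labels call the 3 samples of each group biological replicates. The third group, activated for 12 h, entered the same statistical fit. It helped to estimate the spread and also took part in the filter on low counts and in the scaling of libraries.

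CD3 is the signalling part of the T cell receptor complex, and CD28 is the receptor that gives the second signal a T cell needs for full activation. In T cells, joint engagement of both sets off calcium, MAP kinase and NF-kappaB signalling. Genes for transcription factors and cytokines are typically induced within hours, before growth and division speed up. In ribosome profiling the short mRNA pieces covered by ribosomes are sequenced. The footprint count of a gene therefore depends, among other things, on the amount of its mRNA and the rate at which ribosomes load on it. Footprints alone cannot separate such contributions.

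The files identify genes by Ensembl ID and do not pair the IDs with gene symbols. None of the 19569 IDs could be matched to a symbol through the reference table used here. Cytokines, transcription factors, metabolic enzymes and T cell markers were therefore not analysed as named groups, and no promoter or other sequence could be tied to a changed ID. The labelled cell type was not checked against its markers for the same reason. Single IDs are limited below to 2 rises and 2 falls taken by a set rule. The cell cycle is covered through reference lists that are themselves written in Ensembl IDs.

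The resting libraries held 9239287, 10171929 and 10160141 counts and the 5 h libraries 9492122, 13026762 and 18506509. The common biological coefficient of variation, the relative spread between replicates beyond counting noise, was 15.4% among the resting libraries and 17.2% among the 5 h libraries. Levels are given in CPM, the usual scaling of counts to a fixed library size, with TMM factors, as mean ± SD over 3 replicates. All rises and falls are relative to the scaled library, so a change in the number of footprints per cell would not be seen.

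Between resting and 5 h the footprints of about as many IDs rose as fell, and most of the very large changes were rises. Of 13920 IDs tested, 2261 rose (16.2%) and 2588 fell (18.6%) at an adjusted p under 0.05 by the edgeR quasi-likelihood method, with Benjamini-Hochberg correction. The middle 50% of rises lay between 0.52 and 1.43 on the log2 scale. The middle 50% of falls lay between -0.81 and -0.43. A change of over 1.5-fold was reached by 1544 rises and 1280 falls, one of over 8-fold by 190 rises and 4 falls, and one of over 16-fold by 106 rises and 2 falls. Over 32-fold there were 59 rises and 2 falls. The median log2 fold change over all tested IDs was 0.07. Within classes of resting level above 4 CPM the typical called rise was no larger than the typical called fall: the median log2 fold change was 0.47 for rises and -0.51 for falls above 64 CPM, 0.61 and -0.63 between 16 and 64 CPM, and 0.93 and -1.04 between 4 and 16 CPM.

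Each 5 h library carried the response. Of the 2261 risen IDs, 2188 in replicate 1, 2229 in replicate 2 and 2194 in replicate 3 lay above all 3 resting libraries. For the 2588 fallen IDs, 2542, 2549 and 2539 lay below all resting libraries in the same replicates. The median log2 ratio of risen IDs to the resting mean was 0.86 in replicate 1, 0.79 in replicate 2 and 0.73 in replicate 3, computed on CPM plus 0.5. The same medians for fallen IDs were -0.63, -0.56 and -0.54. These IDs were called in the same libraries, so the values describe how evenly the replicates contributed and are no separate test. The groups did not overlap for 2095 risen and 2465 fallen IDs, and for 45.7% of all tested IDs.

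Called falls lay mostly among IDs abundant at rest, whereas called rises were spread over all levels. The median resting level was 21.1 CPM for risen IDs and 80.95 CPM for fallen IDs, against 20.5 CPM for all tested IDs. Among IDs above 64 CPM at rest, 43.2% fell and 13.6% rose, and their median log2 fold change was -0.20. Between 16 and 64 CPM the shares were nearly equal, with 21.6% fallen and 19.4% risen. Between 4 and 16 CPM 7.27% fell and 20.4% rose. Between 1 and 4 CPM only 7 of 1963 IDs fell while 242 rose. The classes were cut on the same resting level from which each change was measured, and these shares also depend on the scaling. The TMM factors were 0.930, 0.895 and 0.951 at rest and 1.048, 1.026 and 0.997 at 5 h. Such factors lowered the 5 h levels relative to the resting ones. Scaling to total counts alone was not tried.

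**Figure D1:**
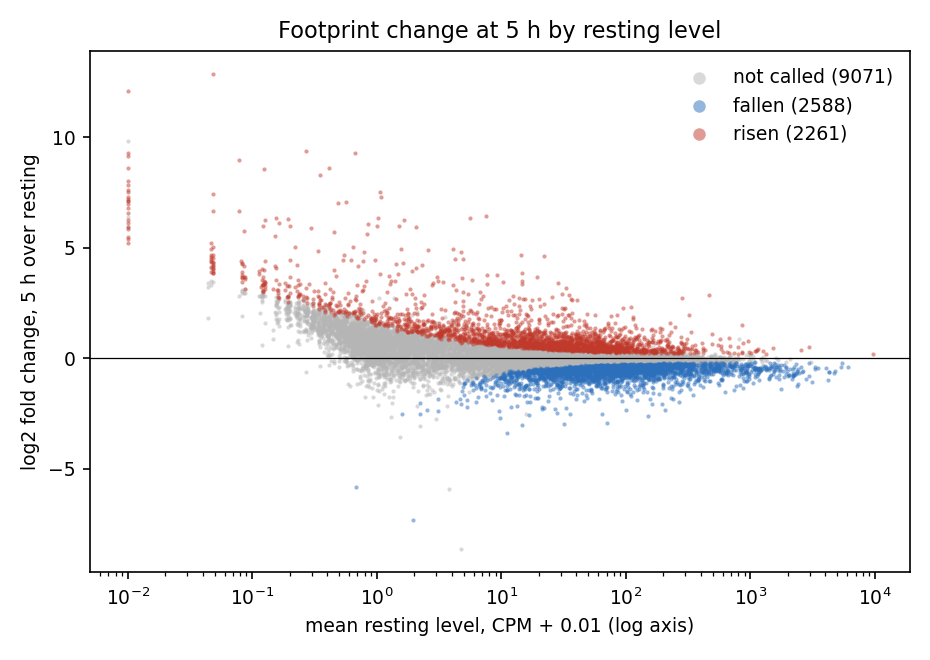
Each point is 1 tested ID, with its mean resting level (CPM plus 0.01, log axis) against its fitted log2 fold change at 5 h. The 2261 risen IDs (red) extend far upward at low resting levels, while the 2588 fallen IDs (blue) lie mostly at higher levels and within a narrow range of change.

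The precision behind these counts also changed with abundance. The median standard error of the log2 fold change was 0.10 above 64 CPM, 0.26 between 4 and 16 CPM, 0.59 between 1 and 4 CPM and 0.92 for IDs with a count but at most 1 CPM. A fall of an ID that is weak at rest leaves few counts to measure and is harder to detect than a rise. Among weak IDs, a high level at 5 h also helped in passing the filter on low counts, so the counts at those levels are not counts over all weak genes.

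Rises of over 4-fold numbered 366. In this set 207 IDs had a resting level above 0 and up to 1 CPM, and 22 had no resting count. A further 55 lay between 1 and 4 CPM, 55 between 4 and 16 CPM and 23 between 16 and 64 CPM, and only 4 exceeded 64 CPM at rest. Falls of over 4-fold numbered 32, with 9 between 4 and 16 CPM, 9 between 16 and 64 CPM and 7 above 64 CPM. The IDs at or below 1 CPM at rest passed the filter largely through libraries in which they were higher, so these counts describe the tested IDs and not all genes of that level.

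To compare detection at equal depth, all 6 libraries were thinned at random to 9239287 counts. Counts were then found for 16335 ± 616 IDs in resting cells and for 17592 ± 220 at 5 h (SD, n = 3). The resting libraries held 16744, 16634 and 15627 such IDs, and the 5 h libraries 17715, 17723 and 17338. All 5 h libraries exceeded all resting libraries, with a two-sided exact permutation p of 0.1, the smallest that 3 against 3 libraries allow. In the thinned libraries 1302 of the 19569 IDs had no count in any resting library, and 723 had none in any 5 h library. Of the 1302, 56 had at least 3 counts in each 5 h library. Of the 723, 1 had at least 3 counts in each resting library. At a minimum of 30 counts the numbers were 4 and 0. For weak tested IDs the median log2 fold change was 1.22 above 0 and up to 1 CPM at rest and 0.455 between 1 and 4 CPM. The limit of the filter given above applies to these medians. The classes were also cut on the resting level from which the change was measured, which by itself favours positive medians at weak levels. These medians therefore add no support to the counts of detected IDs. IDs not tested took 0.115% ± 0.00900 of unthinned counts at rest and 0.219% ± 0.0499 at 5 h.

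By the same limits of level and overlap used for all 4 IDs, an average of at least 4 CPM over the 6 libraries and groups that do not overlap, the ID with the largest rise was ENSG00000143185.4. It had 1, 0 and 0 counts in the resting libraries and 3587, 4290 and 7252 counts in the 5 h libraries. Its levels were 0.116, 0 and 0 CPM at rest and 362, 322 and 394 CPM at 5 h. The ratio of pooled CPM was 9924, with a 95% exact interval from 1781 to 391999 that covers counting error only and is wide because of the 1 resting count. By edgeR's quasi-likelihood test the adjusted p was 6.01e-27. The fitted log2 fold change of 12.85 became 14.88 when resting replicate 1, the library with that count, was left out.

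The second of the rises, ENSG00000164400.6, had no count in any resting library. In the 5 h libraries it had 661, 588 and 958 counts, or 66.6, 44.1 and 52.0 CPM. Its 5 h mean of 54.2 ± 11.4 CPM (SD, n = 3) was at least 494-fold higher than a floor of 3 counts over the resting group, 0.110 CPM. The adjusted p was 5.98e-18 by edgeR. Both IDs therefore went from almost no footprints to a level above the median of all tested IDs, which was 21.1 CPM at 5 h. CPM takes no account of gene length, so this does not rank the genes by their translation.

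Among non-overlapping IDs averaging at least 4 CPM over the 6 libraries, the largest fall was that of ENSG00000258947.8, from 14.2, 9.23 and 10.05 CPM in the resting libraries to 0.302, 0.600 and 2.01 CPM at 5 h. The highest 5 h library lay well below the lowest resting library. The counts behind these levels were 122, 84 and 97 at rest and 3, 8 and 37 at 5 h. The fitted log2 fold change was -3.40 ± 0.46 (SE), with an adjusted p of 5.77e-07 by edgeR. Replicate 3 of the 5 h group was the highest of its group, and without it the log2 fold change was -4.58.

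ENSG00000175097.8 stood at 14.7, 12.97 and 16.4 CPM at rest and at 1.41, 3.07 and 0.977 CPM at 5 h. These levels came from 126, 118 and 158 resting counts and from 14, 41 and 18 counts at 5 h. All 4 IDs were chosen as called and without overlap of the groups, so neither is a separate result. It fell by 3.01 ± 0.37 on the log2 scale (SE), with an adjusted p of 9.36e-08 by edgeR. Here replicate 2 was the highest 5 h library, and the log2 fold change without it was -3.65. Whether any of these IDs has a near-identical copy that could share its footprints was not tested.

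**Figure D2:**
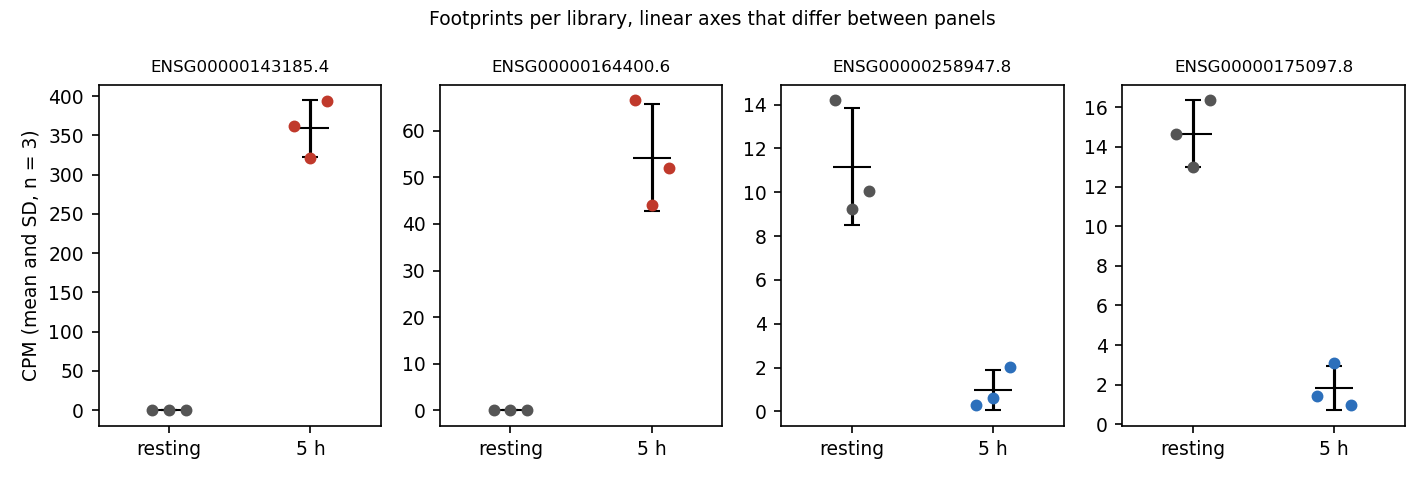
Footprint levels (CPM, linear axes that differ between panels) of the 2 IDs with the largest rises and the 2 with the largest falls among non-overlapping IDs averaging at least 4 CPM. Points are the 3 libraries of each group and bars show mean and SD. ENSG00000143185.4 sits between 322 and 394 CPM at 5 h and at or near 0 at rest, and ENSG00000175097.8 lies between 12.97 and 16.4 CPM at rest and at or below 3.07 CPM at 5 h.

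The response also moved a sizeable part of all footprints. The risen IDs together took 12.3%, 12.2% and 12.4% of counts in the resting libraries and 22.43%, 21.996% and 22.03% in the 5 h libraries. The fallen IDs took 53.0%, 52.9% and 52.9% at rest and 39.7%, 39.7% and 40.0% at 5 h. IDs tested and not called went from 34.7% ± 0.143 to 37.8% ± 0.219 (SD, n = 3). Since the IDs were called on the same libraries, these shares describe the size of the response and carry no test. The raw shares do not depend on the scaling of the libraries, but the calls that define the sets do.

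**Figure D3:**
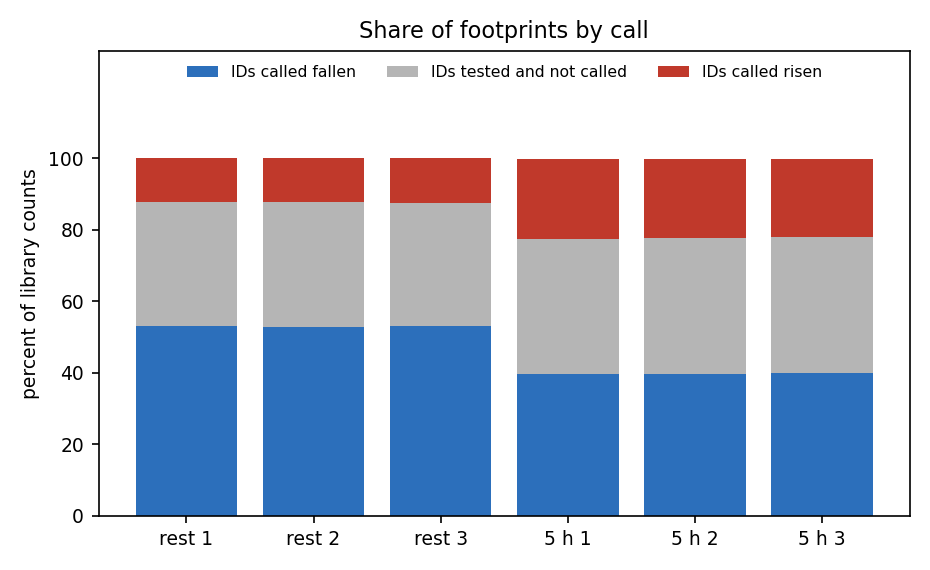
Bars show the percent of each library's counts taken by fallen (blue), uncalled (grey) and risen (red) IDs, for 3 resting and 3 libraries at 5 h. The risen IDs fill 12.2% to 12.4% of resting libraries and 21.996% to 22.43% of 5 h libraries, and the fallen IDs shrink from about 53.0% to between 39.7% and 40.0%.

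A small number of IDs made up much of the gain. Ranked by the difference of mean CPM, 10 IDs supplied 14.9% and 100 IDs 41.7% of the summed gain of risen IDs, and 160 of the 2261 supplied 50%. The summed loss was spread in a similar way, with 8.50% from 10 IDs, 38.5% from 100 IDs and 50% from 176 of the 2588. As shares of library counts, the 366 IDs raised over 4-fold went from 0.207% ± 0.00787 of counts to 2.004% ± 0.169, so most of the gain of the risen IDs came from changes of at most 4-fold.

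Footprints were spread over more IDs at 5 h. The 100 most abundant IDs of each library took 21.4%, 20.3% and 20.9% of its counts at rest and 18.5%, 17.9% and 18.4% at 5 h. The 1000 most abundant took 57.6% ± 0.224 at rest and 54.0% ± 0.410 at 5 h. Accordingly 657, 670 and 678 IDs together held 50% of the counts of the resting libraries, and 824, 831 and 800 IDs those of the 5 h libraries. For each of these measures all 5 h libraries lay on 1 side of all resting libraries, with an exact permutation p of 0.1 (two-sided), the smallest possible. The share of the single most abundant ID of each library went the other way, at 0.886% ± 0.0680 of counts at rest and 1.12% ± 0.0899 at 5 h, again without overlap. Whether this was the same ID in all libraries was not checked. The share of the 10 most abundant IDs overlapped between the groups, at 4.88% ± 0.345 and 4.54% ± 0.141.

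Cell cycle genes were examined with the human reference supplied with the scran package. It holds pairs of Ensembl IDs for the G1 phase, when cells grow, the S phase, when they copy their DNA, and the G2 and M phases (G2M), when they prepare for division and divide. In each pair the first ID exceeds the second in cells of that phase. The reference was made for RNA from single cells, and its use on footprints of whole cultures is descriptive. Pairs with equal counts in a library were left out of that library's share, for every phase. With 29005 S pairs available, the first ID was higher in 43.4%, 41.0% and 43.1% in the resting libraries. At 5 h the shares were 49.4%, 48.1% and 47.8%, all above every resting library.

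The G2M pairs moved the other way. With 20408 pairs available, the first ID was higher in 49.4%, 50.4% and 49.9% at rest and in 45.5%, 46.4% and 46.2% at 5 h, again without overlap. For the G1 pairs, with 23306 available, the groups overlapped, at 48.6% ± 0.811 at rest and 47.9% ± 0.356 at 5 h (SD, n = 3). By exact permutation (two-sided), p was 0.1 for S and for G2M, the smallest that the design allows, and 0.2 for G1. Benjamini-Hochberg adjustment over the 3 phases gave 0.15, 0.15 and 0.2. Pairs share IDs and are not independent of each other.

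**Figure D4:**
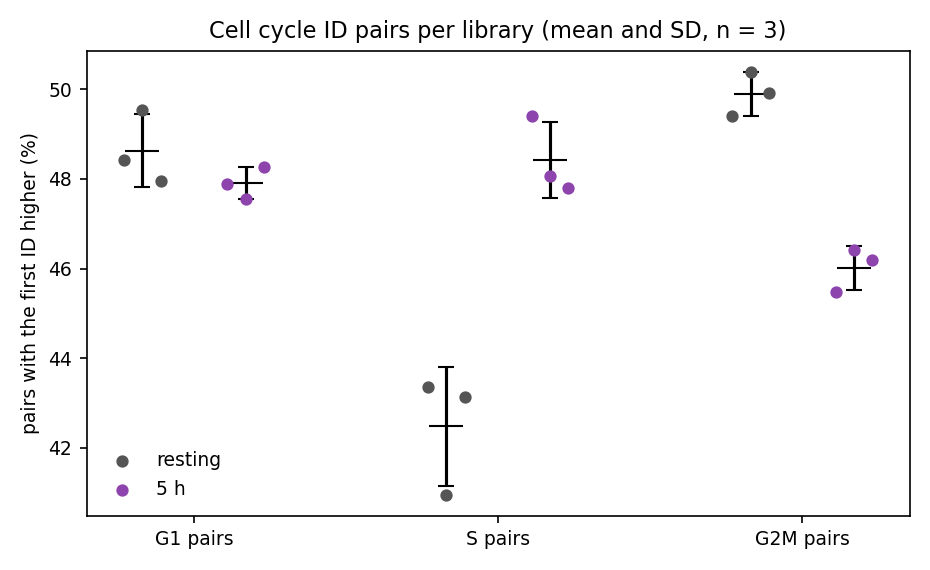
Percent of reference pairs with unequal counts in which the first ID had more counts than the second, for the G1, S and G2M phases. Points are libraries (grey resting, purple 5 h) and bars show mean and SD of 3, on an axis that does not start at 0. The share for S pairs goes from at most 43.4% to at least 47.8%, that for G2M pairs from at least 49.4% to at most 46.4%, and the G1 shares overlap.

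Lists of IDs typical of 1 phase gave a partly different picture. An ID was listed for a phase when it was the first of its pairs in at least 0.9 of them for that phase and in at most 0.5 for both other phases. With fewer than 10 pairs in a phase, its share there was set to 0.5. Such an ID met the limit for that other phase without a measured share. Over all tested IDs 18.6% fell and 16.2% rose, with a median log2 fold change of 0.07. Of the 116 tested G2M IDs, 47 fell (40.5%) and 8 rose (6.90%), with a median of -0.24. Of 149 G1 IDs 59 fell (39.6%) and 23 rose (15.4%), with a median of -0.23. Of 146 S IDs 49 fell (33.6%) and 29 rose (19.9%), with a median of -0.10. The lists held abundant IDs, with median resting levels of 66.6 CPM for G2M, 71.5 CPM for G1 and 75.1 CPM for S.

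Among listed IDs above 64 CPM at rest, 63.9% of the 61 G2M IDs, 57.7% of the 78 G1 IDs and 44.0% of the 84 S IDs fell, beside 43.2% of all IDs at that level. Rises at that level were seen for 4.92% of G2M IDs, 8.97% of G1 IDs and 14.3% of S IDs, beside 13.6% of all IDs. The fallen and risen shares of the S list were close to those of abundant IDs in general. The G2M and G1 lists had a larger fallen and a smaller risen share, with no test of the difference. As shares of counts, the G2M list took 1.23% ± 0.0572 at rest and 1.07% ± 0.0342 at 5 h. The S list took 2.22% ± 0.0483 and 2.12% ± 0.0306, and the G1 list 2.23% ± 0.106 and 2.02% ± 0.0641. Each summed share was lower in all 5 h libraries than in any resting library. All listed IDs were taken from the pairs. A pair compares the counts of 2 IDs within a library, and its outcome can change through the second ID alone. The summed shares add the counts of a list. They and the pairs are therefore not the same measure. At 5 h a larger share of S pairs had the first ID higher, while the S list took a smaller share of counts.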

How the data were processed

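The authors deposited raw footprint counts, as whole numbers, for each versioned Ensembl gene ID. Bowtie, RSEM, bedtools, cutadapt 3.2, DESeq2 and the build GRCh38.p13 appear in the submitters' processing notes, with no role. A second deposited table holds the authors' log2 values of 11572 IDs, which equal log2 of the count over 1 size factor per library, plus 1, within 5.03e-09. How multiply matching fragments were treated is not stated there.

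All 9 libraries entered 1 fit in edgeR 4.0.16 (R 4.3.3): filterByExpr, TMM scaling, robust quasi-likelihood test, Benjamini-Hochberg over 13920 IDs. The procedure was tested on simulated data. Per-library values were compared with exact permutation tests. The cell cycle reference came from scran 1.30.0 and was chosen after the data were seen. IDs shown are the called, non-overlapping IDs averaging at least 4 CPM with the largest fitted changes, 2 each way. The rule originally asked for gene symbols and more genes, and gene lists by symbol had been planned; without symbols neither could be applied. The comparison and lists were chosen with earlier results of these data known. Replicate numbers are not stated to pair libraries, and whether they do was not tested. Deviations of same-numbered resting and 5 h libraries correlated at 0.122, 0.058 and -0.027. Those of differently numbered libraries correlated between -0.168 and 0.124. Alternatives used DESeq2 1.42.0, limma 3.58.1, other scalings, filters and sets of libraries.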

Additional observations from a re-analysis of the deposited data

How the results depend on the processing

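Every alternative kept the direction of the 4 IDs wherever it tested them, and all such values passed its test. The authors' log2 table does not hold the 2 rising IDs. The counts of 2261 rises and 2588 falls stayed within 1.5 times under every alternative. No ID called in the main analysis was called in the opposite direction under any of them. DESeq2 called 2127 rises and 2707 falls, of which 2079 and 2567 were shared with edgeR's calls. Limma on the authors' log2 table called 2007 and 2699, with 1926 and 2516 shared. Leaving out 1 library at a time gave 1847 to 2099 rises and 2248 to 2567 falls. It also moved the count of risen G1 IDs, 23 with all libraries, between 14 and 24: it was 15 without resting replicate 1, 15 without resting replicate 3 and 14 without 5 h replicate 3. In the 6 libraries alone 12812 IDs were tested, and without a block 2122 rose and 2630 fell. With the replicate number as a block, in the same 6 libraries, 2334 IDs rose and 2980 fell. All 4 IDs kept their calls with the block, and each count of a cell cycle list stayed within 1.5 times. The rises made up 41.9% to 49.4% of calls over all alternatives. The median log2 fold change of all IDs was 0.07 in the main analysis over 13920 IDs and 0.16 with DESeq2 over 13978 IDs. It was 0.17 with no low-count filter, 0.000808 with at least 50 counts in 3 libraries and -0.03 on the authors' log2 table, which hold different IDs. The effect of depth was not varied; the median standard error of the log2 fold change was 0.10 above 64 CPM at rest and 0.59 between 1 and 4 CPM.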
